A study of Mus musculus with 6 samples.

Results

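A group of 7 genes that encode antimicrobial proteins of neutrophils and of the skin surface was followed in mouse skin under chronic restraint stress: S100a8, S100a9, Camp, Ngp, Ltf, Lcn2 and Slpi. They were chosen by symbol, 7 of the 54146 Ensembl gene IDs measured. All 7 were found, and 5 had enough signal to be tested. The study compared total RNA of whole skin from 3 mice under chronic restraint stress (CRS), a rodent model of psychological stress in which the animal is repeatedly confined, with that of 3 control mice (CON), taken after 12 weeks. Both groups are described by treatment alone. The sources used here name no strain, sex, age or site of the skin, and each library was taken as 1 mouse, since the design describes 3 mice per group. The comparison bears on which skin transcripts differ under stress.

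Neutrophils are short-lived white blood cells that carry ready-made antimicrobial proteins. S100a8 and S100a9 encode the subunits of calprotectin, a cytosolic complex that binds calcium and withholds zinc and manganese from microbes, and stressed keratinocytes make it too. Camp, the cathelicidin gene, Ngp, a cathelicidin-related granule protein gene, Ltf, which encodes the iron-binding lactoferrin, and Lcn2, which encodes a lipocalin that captures bacterial siderophores, belong to the secondary granules. Neutrophils transcribe most granule genes as precursors in bone marrow and much less once mature, whereas S100a8 and S100a9 transcripts remain in circulating cells. Slpi encodes a secreted inhibitor of neutrophil elastase, and epithelia also express it.

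The libraries held 13.3 to 25.7 M fragments, as recovered from the FPKM values (fragments scaled by exon length and library size). The keratins Krt5 and Krt14 stood at 545 to 1214 FPKM in every library, so epidermal markers were present in all 6. CON replicate 1 stood apart. Mitochondrially encoded genes took 15.3% of its fragments, against a highest share of 4.19% elsewhere, its summed skeletal muscle markers were 13145 FPKM against 439.8 to 2971 FPKM, and it held Xist at 2.80 FPKM beside Y-linked transcripts, so it may not be 1 mouse, where the other libraries held Xist at 0.0221 to 0.168 FPKM. CRS replicate 2 had the lowest FPKM sum, 358190 against 456513 to 609908. The members' fold changes, and the lists and genes that turn on these libraries, are also given without them.

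S100a8 and S100a9 are the members with the highest level per length, at the 95.9th and 90.6th percentile of the mean FPKM of all 28389 genes tested (those with a mean of at least 0.1 FPKM). S100a8 was 15.4, 34.7 and 50.96 FPKM in CON replicates 1 to 3 and 93.7, 12.6 and 61.7 FPKM in CRS replicates 1 to 3, from 202 to 1251 fragments per library. CRS replicates 1 and 3 held the highest values, CRS replicate 2 held the lowest, and the groups overlapped. The group means were 33.7 ± 17.8 FPKM for CON and 56.0 ± 40.9 FPKM for CRS (SD, n = 3). The log2 fold change, of FPKM + 0.1 here and below, was 0.47 (SE 0.75, limma adjusted p = 0.999931), and the exact two-sided permutation p of the 3 against 3 values was 0.5, where 0.1 is the smallest the design can give.

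S100a9, the partner subunit, was 3.85, 11.8 and 25.9 FPKM in controls and 41.6, 7.67 and 18.4 FPKM in stressed skin. CRS replicate 1 was again highest and CON replicate 1 lowest, with CON replicate 3 above CRS replicate 3, so the groups overlapped. Its means were 13.9 ± 11.2 FPKM in controls and 22.6 ± 17.4 FPKM in stressed skin (SD, n = 3). On the log2 scale the fold change was 0.76 (SE 0.77, limma adjusted p = 0.999931; exact permutation p = 0.6). S100a8 exceeded S100a9 per length in all 6 libraries, by 1.64-fold in CRS replicate 2 to 3.998-fold in CON replicate 1. The ratio was 2.97 ± 1.02 in CON and 2.42 ± 0.87 in CRS (SD, n = 3). It spanned 2.43-fold over the libraries, while S100a8 alone spanned 7.44-fold and S100a9 alone 10.8-fold. The pair thus varied more together than against each other, but this was not particular to the pair. The ratio of S100a8 to Camp spanned 2.32-fold and that of S100a8 to Lcn2 4.7-fold. Over the 6 libraries the correlation of S100a9 was 0.938 with Slpi, 0.920 with S100a8, 0.737 with Camp and 0.461 with Lcn2.

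As a description, the 250 bases before the RefSeq starts of S100a8 and S100a9 are shown. Those of Ngp, which is described below, are given for contrast. No link between these sequences and the levels in the libraries was tested. Capitals mark matches to TTGCNNAA, a form bound by C/EBP factors, which drive granulocyte genes, in S100a9 and Ngp, and to the TATA box form TATAAA in S100a8. The sequences are RefSeq's, on GRCm38.p6, 5′ to 3′ on the gene's strand: chr3:90668821-90669070 (plus strand) for S100a8, chr3:90695722-90695971 (minus strand) for S100a9 and chr9:110419558-110419807 (plus strand) for Ngp.
S100a8: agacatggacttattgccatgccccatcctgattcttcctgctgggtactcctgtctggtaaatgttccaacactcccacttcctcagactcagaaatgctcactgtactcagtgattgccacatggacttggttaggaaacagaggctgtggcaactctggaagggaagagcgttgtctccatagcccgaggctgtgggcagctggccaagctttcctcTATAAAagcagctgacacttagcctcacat
S100a9: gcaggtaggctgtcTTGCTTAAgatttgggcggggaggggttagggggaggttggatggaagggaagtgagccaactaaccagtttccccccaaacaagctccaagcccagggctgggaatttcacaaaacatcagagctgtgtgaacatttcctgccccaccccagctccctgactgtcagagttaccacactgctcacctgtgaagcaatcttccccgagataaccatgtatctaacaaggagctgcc
Ngp: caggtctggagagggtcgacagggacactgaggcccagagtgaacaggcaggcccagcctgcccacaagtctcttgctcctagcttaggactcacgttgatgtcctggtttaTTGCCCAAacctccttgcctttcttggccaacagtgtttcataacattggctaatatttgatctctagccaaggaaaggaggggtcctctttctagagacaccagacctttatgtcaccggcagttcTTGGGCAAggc

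All 7 members matched an entry of the RefSeq promoter table. On either strand, TTGCNNAA occurred in the 250-base windows of 5 of the 7 members (S100a9, Ngp, Ltf, Lcn2 and Slpi) and in 9.56% of the 32851 windows in the table. In Ngp it lay 138 to 131 and 11 to 4 bases before the start, in S100a9 236 to 229 bases before. A form bound by NF-kappaB, which opens with GGG and closes with CC, occurred in 2 members, Ltf and Lcn2, and in 45.8% of all windows. In Ltf its matches overlapped one another, between 65 and 51 bases before the start. TATAAA, searched after the sequences had been seen, occurred only in S100a8 among the members, 30 to 25 bases before the start, and in 12.4% of all windows. A match is a run of letters, and no binding was measured.

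The granule genes Ngp and Ltf were at the edge of detection. Ngp was recovered as 4, 0 and 0 fragments in CON and 2, 1 and 0 fragments in CRS, or 0.173, 0 and 0 FPKM and 0.0851, 0.0318 and 0 FPKM. Ltf was recovered as 4, 1 and 1 fragments in CON and 1, 2 and 0 fragments in CRS, and no library exceeded 0.0613 FPKM. Both were under the filter, were not tested, and are given no fold change. A floor of 3 fragments, the one-sided limit that a count of 0 allows, is for Ngp 0.123 FPKM in CON replicate 2, 0.185 FPKM in CON replicate 3 and 0.0974 FPKM in CRS replicate 3. The upper bound of the exact two-sided Poisson 95% interval, the kind given for Camp below, is higher, at 0.151, 0.227 and 0.120 FPKM. Both cover counting error only. CON replicate 1 held the most fragments of both genes, and it was the library with the second lowest S100a8.

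Camp, which encodes the precursor of the mouse cathelicidin peptide, had fewer fragments than Lcn2 and more than Ngp or Ltf. It was 0.279, 0.463 and 0.496 FPKM in controls and 0.823, 0.256 and 1.20 FPKM in stressed skin, from 4, 7 and 5 fragments and from 12, 5 and 23 fragments. CRS replicates 3 and 1 lay above the 3 CON values, and CRS replicate 2 lay below them. Counting error alone was wide: the exact Poisson 95% interval of the highest value ran from 0.763 to 1.81 FPKM and that of CON replicate 3 from 0.161 to 1.16 FPKM. The means were 0.413 ± 0.117 and 0.761 ± 0.477 FPKM (SD, n = 3), with a log2 fold change of 0.58 (SE 0.63, limma adjusted p = 0.999931; exact permutation p = 0.4).

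Lcn2, the siderophore-binding lipocalin, was the steadiest member. It was 1.77, 1.78 and 1.38 FPKM in controls and 2.97, 1.60 and 2.56 FPKM in stressed skin, from 48 to 169 fragments. CRS replicates 1 and 3 lay above all CON values, and CRS replicate 2 lay between them, so the groups overlapped by that 1 library. The means were 1.64 ± 0.231 and 2.38 ± 0.704 FPKM (SD, n = 3). On the log2 scale the fold change was 0.47 (SE 0.40, limma adjusted p = 0.999931; exact permutation p = 0.3). Its within-group SD on the log2 scale was 0.345, at the 15.1th percentile of 6110 genes with a mean FPKM within a factor of 2 of its own.

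Slpi, the elastase inhibitor, was the most variable. It was 0.672, 2.42 and 4.72 FPKM in controls and 11.9, 1.15 and 1.75 FPKM in stressed skin, from 15 to 269 fragments. CRS replicate 1 alone exceeded the CON values, and the other CRS libraries lay within their range. The means were 2.60 ± 2.03 and 4.92 ± 6.01 FPKM, but the CRS median of 1.75 FPKM was below the CON median of 2.42 FPKM. On the log2 scale the fold change was 0.52 (SE 0.93, limma adjusted p = 0.999931; exact permutation p = 0.8). Its within-group SD was 1.55 on the log2 scale, against 1.24 for S100a8, 1.29 for S100a9, 0.730 for Camp and a median of 0.687 over all genes tested. Among genes with a mean FPKM within a factor of 2 of the member's own, the median was 0.563 for Slpi and 0.446 for S100a8. It was 0.442 for S100a9 and 0.898 for Camp. Slpi, S100a8 and S100a9 lay at the 94.5th, 97.0th and 97.5th percentile of such genes, and Camp at the 38.5th.

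**Figure D1:**
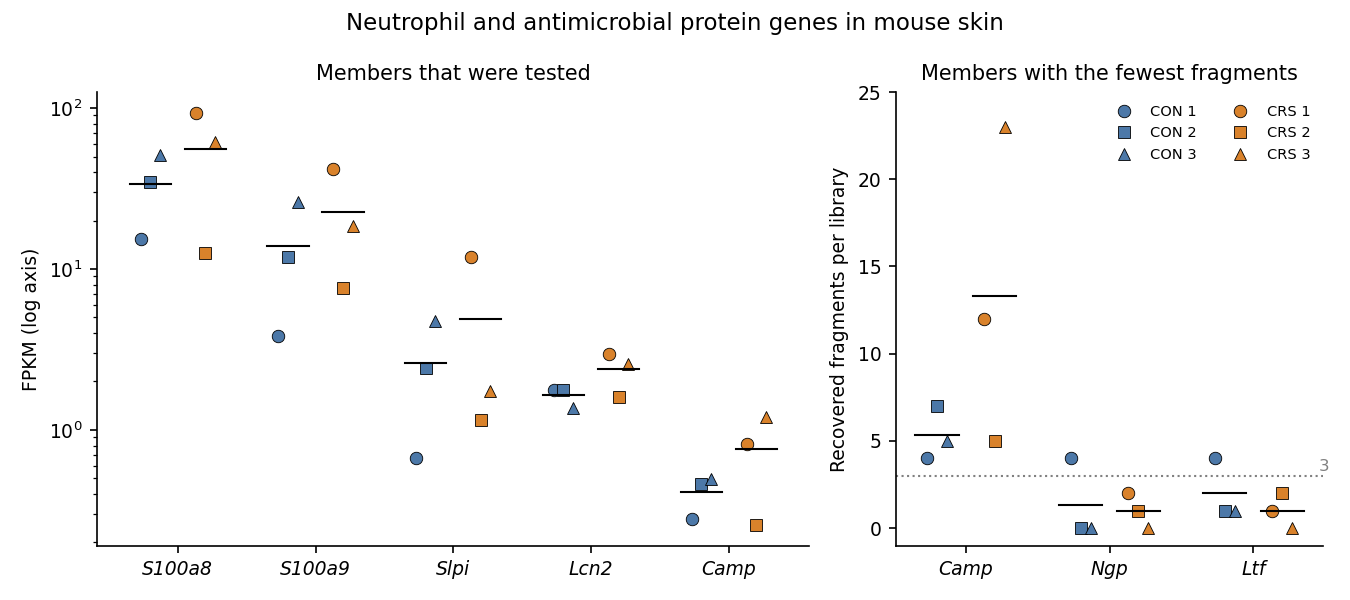
FPKM of the 5 members tested (left, log axis) and recovered fragments of the 3 members with the fewest (right, linear axis, dotted line at 3 fragments), 1 point per library, with bars at the group means. CRS replicate 2 sits at 12.6 FPKM for S100a8, below every control, while CRS replicate 1 sits at 93.7 FPKM, and Ngp and Ltf stay between 0 and 4 fragments.

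In the comparison of CRS with CON, 0 of the 5 members tested passed an adjusted p of 0.05 with limma, where 0% of all 28389 genes did, and 0 of the 5 passed at an unadjusted p under 0.05, where 2.55% of all genes did, 0.919% as higher and 1.63% as lower in CRS. The higher genes were 261 and the lower genes 462. They turned to 421 and 184 under median-ratio scaling and to 490 and 322 under quantile normalization. With voom on the recovered fragments 0 genes passed, and 218 higher and 338 lower had an unadjusted p under 0.05. In 0 of the 5 members were the groups separate, while 1.65% of all genes had every CRS value above every CON value and 5.19% the reverse. All 5 fold changes were above 0, from 0.47 to 0.76 on the log2 scale with a median of 0.52, where 32.2% of all genes lay above 0 and their median was -0.20. These 5 values are not independent, since the same libraries were high and low for most of them. The median of all genes moved to 0.0040 under median-ratio scaling and to -0.32 when each library was rescaled to the same sum, and the 5 fold changes remained above 0 under each scaling.

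With 1 library left out, the log2 fold changes of S100a8 and Slpi turned and that of S100a9 fell to 0.044 at the lowest. Those of Camp and Lcn2 ran from 0.19 to 1.12 and from 0.29 to 0.72. Without CRS replicate 1 the log2 fold change of S100a8 was -0.11 and that of Slpi -0.47. Without CON replicate 1 these were -0.0082 and -0.21, and that of S100a9 was 0.044. Without CRS replicate 2 the value was 1.33 for S100a8, 1.38 for S100a9, 1.12 for Camp, 1.16 for Slpi and 0.72 for Lcn2, with unadjusted limma p of 0.0485 for Camp and 0.0341 for Lcn2 and adjusted p of 0.289 and 0.256. Without CON replicate 3 it was 1.40 for S100a9, 1.12 for Slpi and 0.85 for S100a8, and without CRS replicate 3 it was 0.19 for both Camp and S100a8 and 0.88 for Slpi. When CON replicate 1 was left out together with CRS replicate 2, the values were 0.85 for S100a8, 0.66 for S100a9, 0.92 for Camp, 0.78 for Lcn2 and 0.43 for Slpi, and the lowest limma adjusted p was 0.365, that of Lcn2, where limma's unadjusted p was 0.0481. Of all 28389 genes, 707 higher and 4148 lower had an unadjusted limma p under 0.05 without CRS replicate 2. Without both libraries they were 768 and 3081, and with all 6 libraries 261 and 462. The low p of Camp and Lcn2 thus came in fits where many more genes had one.

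**Figure D2:**
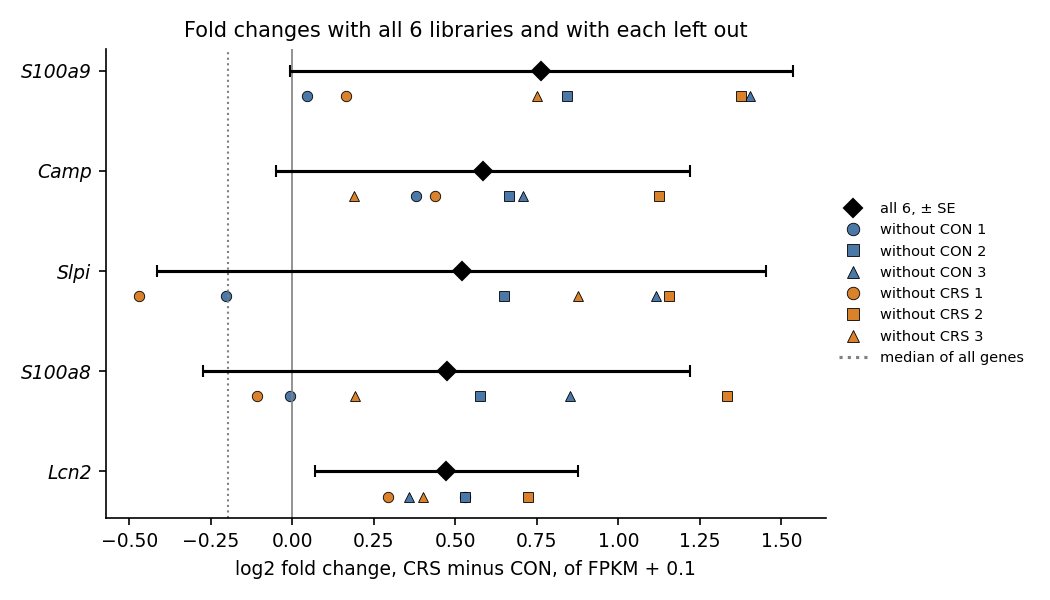
The log2 fold change (CRS minus CON, of FPKM + 0.1) of each tested member, as a diamond ± SE with all 6 libraries and as coloured points below it with each library left out; the dotted line is the median of all genes at -0.20. The points for S100a8 run from -0.11 without CRS replicate 1 to 1.33 without CRS replicate 2, and those for Lcn2 stay between 0.29 and 0.72.

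The levels of the shortest members, S100a8, S100a9 and Camp, moved in part with a property of the libraries, the level of short transcripts. S100a8, S100a9 and Camp have merged exon lengths of 694, 522 and 758 nt. The median of the 291 protein-coding genes of up to 800 nt and at least 1 FPKM, as a log2 deviation from each gene's mean, was -0.56, 0.21 and 0.063 in CON replicates 1 to 3 and 0.78, -0.94 and 0.57 in CRS replicates 1 to 3. The deviation of S100a8 was -1.20, -0.032 and 0.52 in CON and 1.40, -1.49 and 0.80 in CRS. Short genes and S100a8 were thus both lowest in CRS replicate 2, next lowest in CON replicate 1 and highest in CRS replicates 1 and 3. The 4719 genes over 5000 nt went the other way in CRS, at -0.42, 0.69 and -0.58, and stood at 0.25, -0.016 and 0.12 in CON.

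Relative to the genes of up to 800 nt, the spread of S100a8 over the libraries went from 2.89 to 1.26 log2 units, that of S100a9 from 3.401 to 2.10 and that of Camp from 1.87 to 0.85. The difference of the group means was then 0.24 for S100a8, 0.53 for S100a9 and 0.35 for Camp. CRS replicate 1 and CON replicate 3 then held the highest S100a8, at 0.62 and 0.46, and CON replicate 1 and CRS replicate 2 the lowest, at -0.64 and -0.54. For Slpi (1180 nt) and Lcn2 (2623 nt), relative to genes of 800 to 1500 nt and of 1500 to 3000 nt, the spread was 3.65 and 1.32 where it had been 3.95 and 1.057. In a fit with a smooth length correction, added after the data had been seen, the log2 fold changes were 0.63 for S100a8, 0.95 for S100a9, 0.74 for Camp, 0.69 for Lcn2 and 0.68 for Slpi (limma adjusted p = 0.999862 for each). The median of all genes was 0.022 in that fit and -0.20 without the correction, so the members rose where the median of all genes rose as well. For S100a8 the 2 adjustments differed, since 0.63 is above the uncorrected 0.47 and 0.24 is below it. The part of RNA quality or library preparation in the length trend was not tested.

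**Figure D3:**
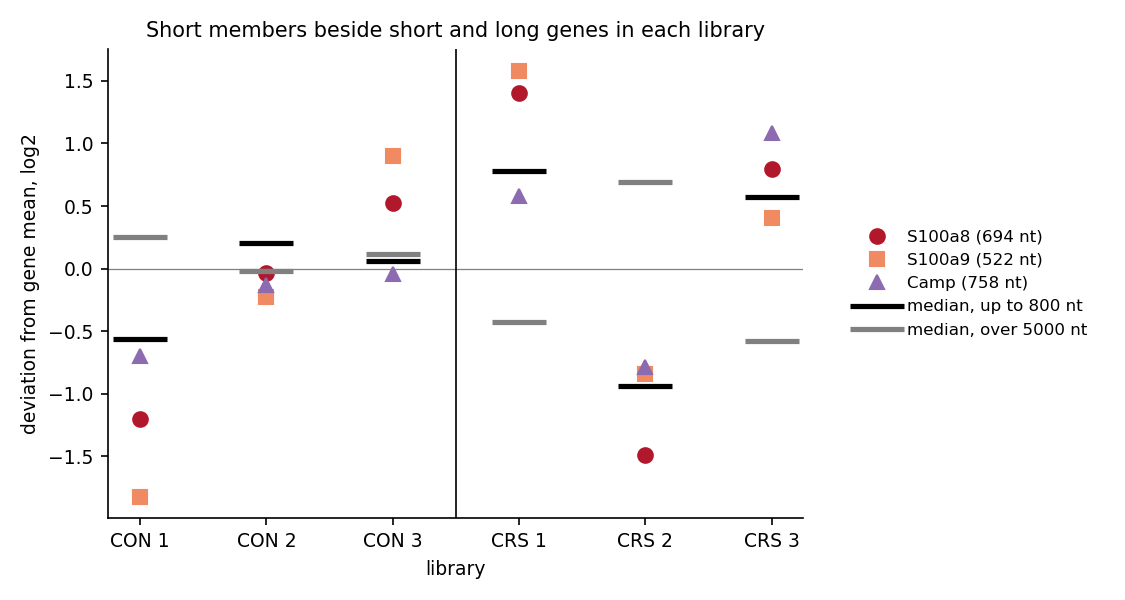
Log2 deviation from the gene's own mean for S100a8, S100a9 and Camp in each library, beside the medians of protein-coding genes of up to 800 nt (black bars) and over 5000 nt (grey bars). All 3 members lie on the same side of 0 as the black bars in CON replicate 1 and in the CRS libraries, where the bars stand at 0.78, -0.94 and 0.57, and below 0 in CON replicate 2, where the bar is at 0.21.

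Genes that define neutrophils stood far below S100a8 and in another order. Ly6g, the surface marker of mouse neutrophils, was recovered as 3, 0 and 1 fragments in CON and as 0 fragments in each CRS library. Csf3r, the receptor for the growth factor that raises neutrophils, was 0.293, 0.431 and 0.438 FPKM in controls and 0.432, 0.862 and 0.231 FPKM in stressed skin. Cxcr2, the chemokine receptor that draws neutrophils into tissue, was 0.156, 0.247 and 0.592 FPKM in controls and 0.239, 0.752 and 0.247 FPKM in stressed skin. Both receptor genes were highest in CRS replicate 2, the library with the lowest S100a8. Their log2 fold changes were 0.20 (SE 0.60) and 0.23 (SE 0.66), and -0.20 for each without that library. Csf3r and Cxcr2 have merged exon lengths of 3609 and 3048 nt, against 694 nt for S100a8. The median log2 deviation of protein-coding genes of 3000 to 5000 nt was also highest in CRS replicate 2, at 0.38. It was -0.36 and -0.34 in CRS replicates 1 and 3. The part of gene length in these orders was not tested. Elane, neutrophil elastase, and Mpo, myeloperoxidase, both primary granule enzymes, did not exceed 0.161 and 0.152 FPKM. Elane was recovered as 3, 1 and 2 fragments in CON and 3, 4 and 1 fragments in CRS. Mpo was recovered as 4, 3 and 2 fragments in CON and 10, 5 and 13 fragments in CRS. Its FPKM was highest in CRS replicates 1 and 3, as was that of S100a8, and its groups overlapped. Ly6g and Mpo were under the filter and were not tested.

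Of 42 other neutrophil and granule genes on a list written for this comparison, 31 passed the filter. Of these, 14 had a fold change above 0 (45.2%, beside 32.2% of all genes) and 17 below, and the median was -0.041 beside -0.20. An unadjusted p under 0.05 was found for 0 of them, where 2.55% of all genes had one. Without CON replicate 1 the count above 0 was 9 (29%, beside 35%) and the median -0.23 beside -0.16. When CRS replicate 2 was left out as well they were 6 (19.4%, beside 37.5%) and -0.47 beside -0.19. The lowest unadjusted p were those of Orm1, an acute phase protein gene that adipose tissue and liver also express, at 42.9 ± 23.2 FPKM in controls and 74.1 ± 32.1 FPKM in stressed skin, and of Fpr2, a formyl peptide receptor that also binds cathelicidin. Fpr2 was 0.775, 0.736 and 1.16 FPKM in controls and 0.722, 0.2999 and 0.367 FPKM in stressed skin, with every CRS value below the CON values (log2 fold change -0.86, SE 0.53, limma adjusted p = 0.999931). In whole skin, fewer cells of a type and less RNA per cell cannot be told apart.

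**Figure D4:**
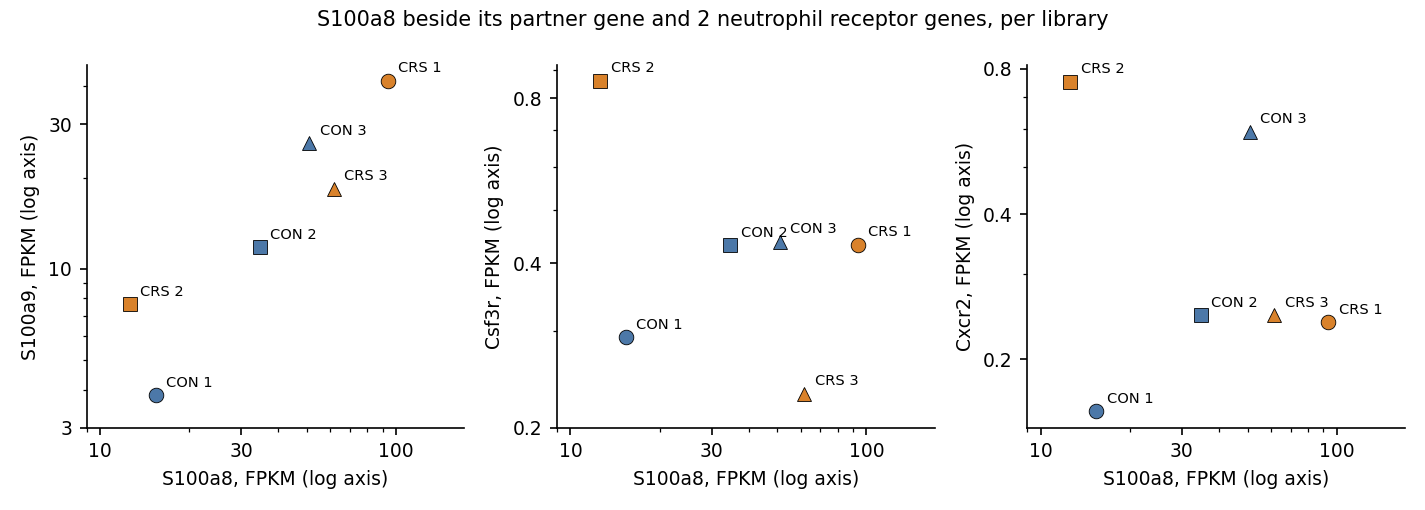
FPKM of S100a9, Csf3r and Cxcr2 (vertical, log axes) against S100a8 (horizontal, log axis), 1 labelled point per library. S100a9 follows S100a8 from CON replicate 1 and CRS replicate 2 up to CRS replicate 1, whereas the neutrophil receptor genes are highest in CRS replicate 2, at 0.862 and 0.752 FPKM. Csf3r and Cxcr2 are 3609 and 3048 nt long, where S100a8 is 694 nt.

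A list of antimicrobial genes drawn up for keratinocytes had a median log2 fold change of 0.47, close to that of the members. In it 16 of 19 tested lay above 0 (84.2%, beside 32.2% of all genes). Without CON replicate 1 these were 15 genes (78.9%, beside 35%) and a median of 0.31 beside -0.16. Without CRS replicate 2 they were 17 genes (89.5%, beside 38.8%) and 0.81 beside -0.21. With all 6 libraries 1 had an unadjusted p under 0.05, where 0.919% of all genes were higher at that p, and 0 passed the adjusted threshold. That gene was Lyz1, a lysozyme gene, at 23.4 ± 7.46 FPKM in controls and 39.0 ± 0.790 FPKM in stressed skin (SD, n = 3), with every CRS value above the CON values. Lyz1 shares much sequence with Lyz2, so its reads may be split between them. Whole skin does not show which cells made the transcripts of this list, Lyz1 among them. S100a7a, which encodes an S100 protein of the epidermis, was 28.3, 115.2 and 100.9 FPKM in controls and 214.4, 114.5 and 194.8 FPKM in stressed skin (log2 fold change 1.28, SE 0.57, limma adjusted p = 0.999931). It was lowest in CON replicate 1, without which the value was 0.64, and CRS replicate 2 lay within the CON range. The log2 fold change of Lyz1 was 0.79 with all libraries and 0.50 without CON replicate 1.

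The other S100 genes, 16 tested, had a median log2 fold change of 0.051, beside -0.20 for all genes. In that list 9 lay above 0 (56.2%, beside 32.2% of all genes). There 1 had an unadjusted p under 0.05, where 0.919% of all genes were higher at that p. That gene was S100a5, at no more than 0.540 FPKM and 0 to 6 fragments a library. Without CRS replicate 2 the median was 0.67 (beside -0.21 for all genes) and without CON replicate 1 it was -0.068 (beside -0.16). The library medians of these S100 genes were 0.75 in CRS replicate 1, -0.98 in CRS replicate 2 and 0.50 in CRS replicate 3, the same order of CRS libraries as for S100a8. Activated keratinocyte genes, a list that includes the stress keratins, had 16 of 19 above 0 (84.2%, beside 32.2% of all genes). The median of the list was 0.85 beside -0.20, and 3 had an unadjusted p under 0.05, where 0.919% of all genes were higher at that p. These included Klk6, a kallikrein protease gene with a log2 fold change of 1.35 (SE 0.39), and Rptn, a cornified envelope gene, with 1.68 (SE 0.63). Both had every CRS value above the CON values, and 0 genes of the list passed the adjusted threshold of limma. Without CON replicate 1 the count above 0 was 12 (63.2%, beside 35% of all genes), the median 0.37 (beside -0.16) and 1 gene had an unadjusted p under 0.05. Krt16 was 9.13, 27.6 and 35.4 FPKM in controls and 40.2, 47.4 and 42.2 FPKM in stressed skin, every CRS value above CON (log2 fold change 1.05, SE 0.49, limma adjusted p = 0.999931). The log2 fold change without CON replicate 1 was 0.46 for Krt16, 0.94 for Klk6 and 0.91 for Rptn. The library medians of that list were 0.62, 0.36 and 0.31 in CRS, so unlike the members it was not low in CRS replicate 2. In CON they were -1.41, -0.025 and 0.033. Basal and suprabasal keratinocyte genes had 11 of 14 above 0 (78.6%, beside 32.2% of all genes) and a median of 0.23 beside -0.20. Without CON replicate 1 they had 7 above 0 (50%, beside 35%) and a median of 0.099 beside -0.16.

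**Figure D5:**
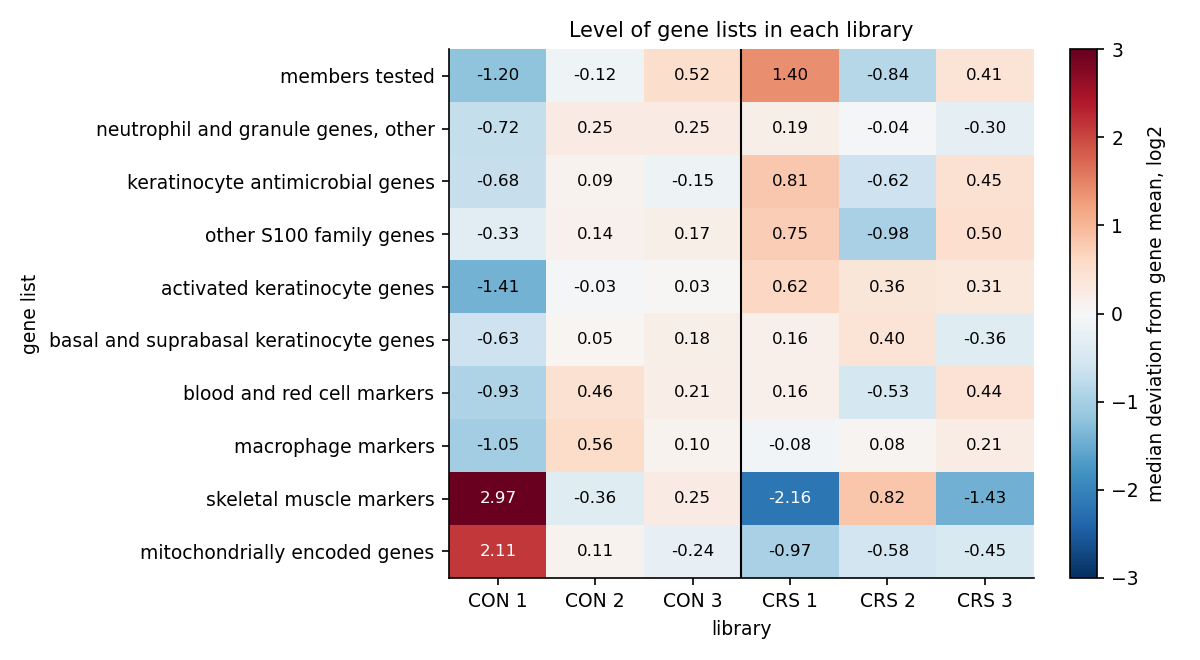
Median log2 deviation from the gene mean in each library (columns) for the 5 tested members and the gene lists (rows), red above and blue below the mean. The members stand at -1.20 in CON replicate 1 and -0.84 in CRS replicate 2, where skeletal muscle markers are at 2.97 and 0.82.

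Other cell types moved with the members in part. The 11 blood and red cell markers summed to 72.5 FPKM in CON replicate 1 and 82.6 FPKM in CRS replicate 2, the libraries with the least S100a8, and to 188.5 to 273.5 FPKM in the others. Their range was 72.5 to 264.1 FPKM in controls and 82.6 to 273.5 FPKM in stressed skin, and Hbb-bs, the beta globin gene, averaged 66.3 ± 34.3 and 66.3 ± 42.3 FPKM (SD, n = 3). The 12 macrophage markers summed to 188.6 to 508.4 FPKM in controls and 320.6 to 445.1 FPKM in stressed skin. Skeletal muscle markers were highest in CON replicate 1, next in CRS replicate 2 at 2971 FPKM and lowest in CRS replicate 1 at 439.8 FPKM, whereas S100a8 was lowest in CRS replicate 2 and CON replicate 1 and highest in CRS replicate 1. Hbb-bs has a merged exon length of 768 nt. The median log2 deviation of genes of up to 800 nt was likewise low in CON replicate 1 and CRS replicate 2, at -0.56 and -0.94. The part of blood content, muscle content or gene length in the values of the members and of these markers was not tested.

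Of 19 transcription factor and signalling genes upstream of the members, 7 had a fold change above 0 (36.8%, where 32.2% of all genes did) and 12 below, with a median of -0.11 beside -0.20 for all genes. With all 6 libraries the list thus lay near all genes, but not without CRS replicate 2. Without CRS replicate 2 the count above 0 was 1 (5.3%, beside 38.8% of all genes) and the median -0.51 beside -0.21. Without CON replicate 1 they were 3 (15.8%, beside 35%) and -0.15 beside -0.16. Without both libraries they were 0 (beside 37.5%) and -0.47 beside -0.19. Cebpb, a C/EBP factor that acts on acute phase genes, was 23.5, 12.6 and 42.2 FPKM in controls and 12.1, 4.83 and 10.9 FPKM in stressed skin, every CRS value below the CON values. Its log2 fold change was -1.42 (SE 0.52, unadjusted p = 0.0244, limma adjusted p = 0.999931), and -1.01 without CRS replicate 2. Cebpd, another member of that family, was 2.99 ± 1.03 FPKM in controls and 1.58 ± 0.473 FPKM in stressed skin (SD, n = 3).

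Of the signals that recruit or raise neutrophils, 9 of 17 tested lay above 0 (52.9%, beside 32.2% of all genes), with a median of 0.017 beside -0.20 and 0 at an unadjusted p under 0.05. Without CON replicate 1 the count was 6 (35.3%, beside 35% of all genes) and the median -0.44, where that of all genes was -0.16. Without CRS replicate 2 they were 11 (64.7%, beside 38.8%) and 0.19 beside -0.21. Csf3, Csf2, Il17a and Il22 were under the filter. The lowest p were those of Il1a, an alarm cytokine of keratinocytes, and of Il1f8, which encodes IL-36 beta. Il1a was 3.60 ± 1.75 FPKM in controls and 6.06 ± 1.31 FPKM in stressed skin, and Il1f8 5.42 ± 2.92 and 9.69 ± 3.97 FPKM (SD, n = 3). In 2 genes of the list, Cxcl1 and Tnf, every CRS value lay below the CON values, and in 0 every CRS value lay above them. Of all genes, 5.19% and 1.65% did so. The log2 fold change was -1.04 (SE 0.59) for Cxcl1, at no more than 0.762 FPKM, and -0.76 (SE 0.48) for Tnf. Among the receptors, proteases and partners of the member proteins, 8 of 17 lay above 0 (47.1%, beside 32.2% of all genes). Of this list 0 had an unadjusted p under 0.05, and the median was -0.031 beside -0.20. The count was 11 (64.7%, beside 35%) and the median 0.17 beside -0.16 without CON replicate 1. Without CRS replicate 2 they were 5 (29.4%, beside 38.8%) and -0.18 beside -0.21. One of them, the protease gene Ctsg, had every CRS value above the CON values, from 2 fragments in CON and 13 in CRS in all.

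Among 11781 protein-coding genes of at least 1 FPKM, the genes with the pattern most like S100a8 over the 6 libraries were Fam25c, Hist1h2ag and 1700016H13Rik, with a Pearson r of log2(FPKM + 0.1) of 0.994, 0.991 and 0.985. Those most like S100a9 were Tmem246, Hist1h2ao and Ctsd (0.992, 0.987 and 0.986), and those most like Camp were Gng13, Ly6g6d and Tmem121 (0.984, 0.978 and 0.969). Those most like Lcn2 were Tlcd2, Crygn and Nudt17 (0.982, 0.976 and 0.965). Slpi was nearest to Gal3st1 and to Lce1e and Lce1d, late cornified envelope genes of the epidermis (0.997, 0.990 and 0.988). With 6 libraries high values are frequent, and 202 genes exceeded 0.9 with S100a8, 77 with S100a9 and 19 with Lcn2. All of these values come from the same 6 libraries, which differ in depth, muscle content and the level of short genes, and no p is given.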

How the data were processed

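Each library came as 1 deposited file of FPKM for 54146 Ensembl gene IDs. Alignment was with HISAT2 on GRCm39, per the submitters' processing notes, and the sources used here name neither counting program nor annotation. RNA was isolated with Trizol, per the labels' protocols. GENCODE M21, made on GRCm38, supplied symbols and merged exon lengths for 54079 of the IDs, so member genes are given without coordinates of their own.

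FPKM times length gave whole fragments (within 0.05 of a whole number, values up to 100 fragments) for 98.1% to 98.3% of values, and these set depth and counting error. A gene was tested where its mean reached 0.1 FPKM, which 28389 did, as log2(FPKM + 0.1), a scale that understates changes of low genes. The test was limma 3.58.1 (R 4.3.3) with a mean-variance trend, two-sided and adjusted by Benjamini-Hochberg across these genes and a threshold of 0.05. The fit was tried on simulated data with independent noise, where changes were given only to genes of a level above that of Camp. It recovered the fold changes but called none of the genes given the smallest change simulated, and missed some with the largest. That smallest change exceeds the fold change of every member. The mark this check had to pass was lowered after its result was seen. Changes of the members' size were not simulated, and the fit is unlikely to call them. An adjusted p above the threshold therefore does not show that a gene was unaffected. P-values measure the spread between libraries. Intervals cover counting error only.

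The members, lists and tests were chosen with earlier results of these data known. Genes named beside the members are markers that define a cell type, the 2 genes of lowest p in a list and the 3 genes most like each member. Genes outside that rule were named after their values were seen. Figures were drawn with Python 3.11.15 and matplotlib 3.10.9.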

Additional observations from a re-analysis of the deposited data

How the results depend on the processing

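Under all 19 alternatives 0 genes passed the adjusted threshold in either direction. The log2 fold changes of S100a9, Camp and Lcn2 remained above 0 under each alternative run for them (19, 18 and 19; Camp was under the filter of 1 FPKM), and those of S100a8 and Slpi turned under 2 and 3 of 19. With each library left out in turn, the value ran from -0.11 to 1.33 for S100a8, from 0.044 to 1.40 for S100a9, from 0.19 to 1.12 for Camp, from 0.29 to 0.72 for Lcn2 and from -0.47 to 1.16 for Slpi. S100a8 turned without CON replicate 1 (-0.0082) and without CRS replicate 1 (-0.11). Slpi turned without those libraries (-0.21 and -0.47) and with array weights (-0.044). The smallest adjusted p of any member was 0.104, that of Camp with array weights. Tested with no filter, Ngp came to -0.054 (SE 0.47) and Ltf to -0.22 (SE 0.25), values that rest on 0 to 4 fragments a library and are no estimate of a change. The number of genes at an unadjusted p under 0.05 was 261 higher and 462 lower, and ran from 133 to 1109 higher and from 181 to 6525 lower, the upper ends with array weights. With each library left out it ran from 158 to 707 higher and from 181 to 4148 lower. The replicate numbers of the labels did not pair the libraries (correlations of same-numbered libraries -0.12, 0.062 and 0.087). With the number as a replicate block 0 genes passed, 256 higher and 370 lower had an unadjusted p under 0.05, 0 of 6 libraries correlated best with the library of their own number, and the members' fold changes were the same as without it. The alternatives of length correction, of leaving out CON replicate 1 with CRS replicate 2, and of leaving out libraries for the gene lists were chosen after seeing the data. The cause of these changes was not tested. Depth limits Camp, Ngp and Ltf, where a library held 0 to 23 fragments.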
